A study of Mus with 2 samples.

Results

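Ureteric tip cells are the epithelial cells at the ends of the branching ureteric tree, from which the collecting ducts of the kidney grow. In single-cell RNA libraries of newborn (P0) mouse kidneys they were picked by their own transcripts. A barcode was taken as a tip cell when it held at least 2 unique molecular identifiers (UMIs) of Ret and Wnt11 together and at least 1 of Gata3. It could hold at most 1 UMI each of Aqp2, Six2 and Col3a1 and none of Pecam1. These values chose the cells, so the levels of these genes are given below as a description. The rule found 118 tip cells among 11369 kept barcodes, 58 of 6220 in replicate 1 and 60 of 5149 in replicate 2.

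Both libraries came from kidneys of the genotype Rbpj c/- ; Foxd1cre/+. In the study design the conditional Rbpj allele was targeted in the renal interstitium through Foxd1Cre, and the label writes the other Rbpj allele as "-" without saying how it was made. Foxd1 marks stromal progenitors, and the ureteric epithelium arises from another lineage. The study also names Rbpj c/+ ; Foxd1cre/+ controls, which were not analysed here, so every comparison below is between cells of the mutant kidneys. Nothing in the labels says whether the libraries came from separate litters. The p-values measure only how far differences between groups disagree across these 2 libraries, with the spread of each gene drawn partly from other genes.

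In the embryonic kidney the cap mesenchyme secretes GDNF, which binds the co-receptor GFRA1 and the receptor tyrosine kinase RET on tip cells. RET signalling raises the ETS factors ETV4 and ETV5 and the secreted factor WNT11, and Sprouty proteins and DUSP6 dampen it. Tip cells divide, and their descendants form the trunk, where they switch on water and sodium channel genes as collecting duct cells. Tip cells were therefore compared with Aqp2 duct cells, which held at least 3 UMIs of Aqp2 and at least 1 of Hoxb7 (104 and 72 cells), and with the rest of the kept barcodes (6058 and 5017). UMIs were summed per library and group, and levels are given as CPM, the gene's UMIs scaled to a common total of all UMIs in that sum. The scale does not adjust for gene length and does not serve to rank genes against each other.

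Replicate 1 held 163405630 UMIs and replicate 2 held 135436576, and kept barcodes had a median of 11987.5 and 12307 UMIs. Tip cells were deeper, with medians of 29915 and 22491 UMIs and a range from 9371 to 174311. Aqp2 duct cells were deeper still, with medians of 51554 and 44942. The median share of mitochondrial UMIs was 5.49% and 5.75% in tip cells and 7.60% and 7.98% in duct cells. The kept sets of the 2 libraries shared 6 barcodes. Tip cells made up 0.932% of kept barcodes in replicate 1 (exact binomial 95% interval 0.709 to 1.20%) and 1.17% in replicate 2 (0.890 to 1.5%), a mean of 1.05 ± 0.165% (SD, n = 2). The intervals overlap and, like all intervals below, cover counting error only.

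The genes of the rule had these levels. Ret (ENSMUSG00000030110, chr6:118151748-118197744 in RefSeq's GRCm38.p6), the GDNF receptor kinase, stood at 152 and 158 CPM in tip cells of replicates 1 and 2. Wnt11 (ENSMUSG00000015957, chr7:98835084-98854747), a Wnt ligand secreted by tips, stood at 200 and 209 CPM. Gata3 (chr2:9857078-9887953), a transcription factor of the ureteric lineage that the duct keeps, stood at 298 and 255 in tip cells and at 549 and 546 in duct cells. The libraries gave nearly the same Ret and Wnt11 levels.

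Single tip cells differed widely from each other. Ret ran from 0 through a median of 140 to 429 CPM in replicate 1 and from 0 through 128 to 527 in replicate 2. Wnt11 ran from 0 through 116 to 800 and from 0 through 178 to 836. Both transcripts were found together in 44 and 40 cells, Ret without Wnt11 in 6 and 10, and Wnt11 without Ret in 8 and 10. Just inside the threshold, 14 and 19 tip cells held 2 or 3 UMIs of Ret and Wnt11 together. Just outside it, 17 and 17 barcodes held 1 and met every other condition. Lhx1, also an early nephron marker, stood at 473 and 411 CPM just inside and 983 and 596 just outside, against 118 and 134 in cells with both transcripts. Gfra1 stood at 127 and 160 just inside and 67.9 and 88.9 just outside, against 424 and 357.

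**Figure D1:**
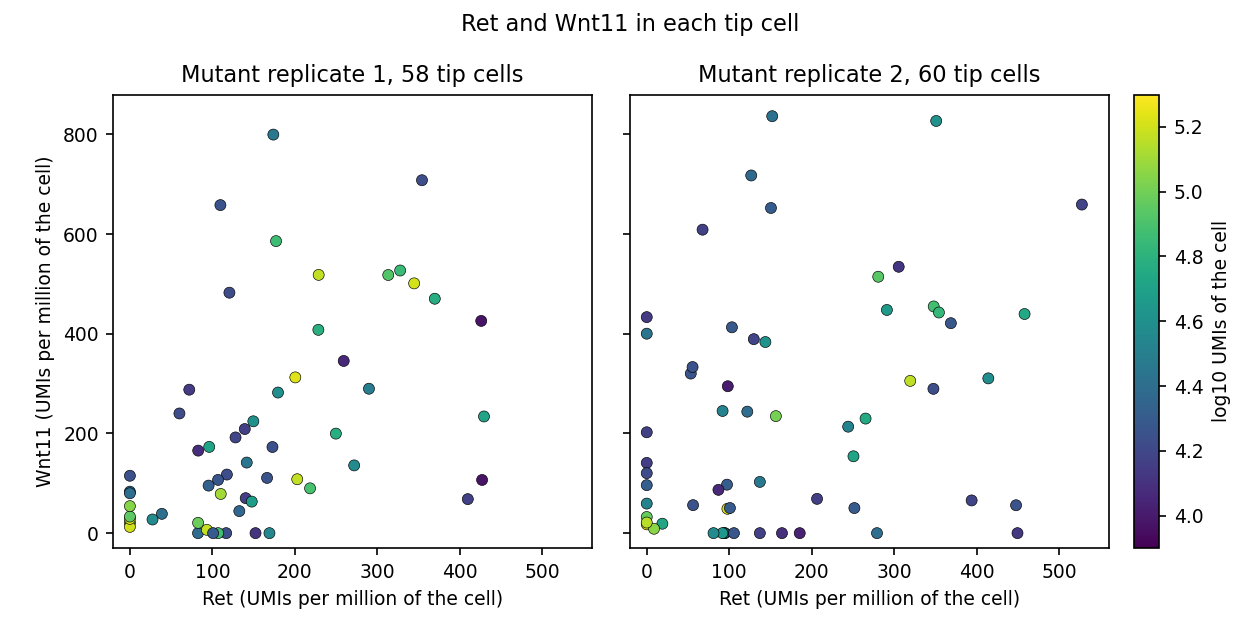
Ret (x axis) and Wnt11 (y axis) in each tip cell, in CPM of that cell, for mutant replicate 1 (left, 58 cells) and replicate 2 (right, 60 cells); each point is a cell and its colour gives the log10 of its UMIs. Most cells hold both transcripts, and the cells near the origin are mostly among the deepest.

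Hoxb7 (chr11:96285604-96290163), a homeobox gene that marks the ureteric lineage, did not enter the choice of tip cells and gives a limited check of the name. It stood at 391 and 317 CPM in tip cells, 195 and 176 in duct cells and 81.7 and 82.4 in the rest. After each cell was thinned to 5000 UMIs, a Hoxb7 UMI was found in 81.0% and 71.7% of tip cells. At the same depth it was found in 64.7% and 59.7% of duct cells and in 22.5% and 24.2% of the rest, whose median depths were 11787 and 12142 UMIs. Duct cells had to hold Hoxb7 and were not part of the rest, so the values of both describe that choice as well. Barcodes just outside the tip threshold held Hoxb7 at 152 and 189 CPM.

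Marker lists of other kidney cells differed in their tip sums. The summed level of 4 nephron progenitor markers was 16.5 and 21.2 CPM, against 253 and 294 in the rest. The 6 stromal markers summed to 11.7 and 22.9, against 678 and 758. The 5 endothelial markers summed to 41.5 and 37.0, against 411 and 308, and Cdh5, which defines endothelium, had 0.649 and 0 CPM. The rule kept Six2, Col3a1 and Pecam1 low, which mark progenitors, stroma and endothelium, so the low sums of those lists describe that choice as well. The 5 early nephron markers, among them Lhx1, Pax8 and Ccnd1, summed to 872 and 854 in tip cells, against 996 and 952 in the rest. The 4 distal tubule markers summed to 1724 and 1882, against 73.6 and 60.8, and Calb1, which the ureteric tree also expresses, gave 1602 and 1807 of that. Pvalb of the same list had no UMI in tip cells. The 4 loop of Henle markers were uneven, at 76.2 in replicate 1 and 491 in replicate 2, with 4 and 242 UMIs of Umod. In replicate 2, 3 tip cells held 241 of these Umod UMIs and 448 of the 455 Slc12a1 UMIs. In replicate 1, 2 cells held 94 of the 103 Slc12a1 UMIs. Most of these UMIs lay in the 9 tip cells described next, which held 94 of the Slc12a1 UMIs in replicate 1 and, in replicate 2, 369 of Slc12a1 and 241 of Umod. Counting those 9 cells in the rest instead gave 4632 genes called against the duct. Of these, 4136 were also among the 4631 called with them as tip cells.

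The 9 tip cells with the least Ret and Wnt11 relative to their UMIs differed from the others in genes the rule did not read. They held under 50 CPM of the pair, 4 in replicate 1 and 5 in replicate 2, at median depths of 127650 and 113384 UMIs, and this split was chosen after the values were seen. Calb1, the calcium-binding protein calbindin of the ureteric tree, stood at 3.85 and 45.7 CPM in them, against 1926 and 2353 in the other tip cells. Lhx1, a homeobox factor of the ureteric bud and of early nephrons, stood at 656 and 518, against 134 and 130. Tmem52b, a distal nephron gene, stood at 614 and 283, against 21.1 and 9.27, and Wnt9b had no UMI in these 9 cells. Gfra1 was lower as well, at 96.2 and 107 against 385 and 366, while Spry1 overlapped, at 219 and 130 against 222 and 184. Hoxb7 was lower too, at 160 and 142 against 438 and 371. These levels go against the name in the 9 cells. The other 4 tip cells of replicate 1 with no Ret UMI had no UMI of Calb1 or Wnt9b either, with Lhx1 at 435 and Tmem52b at 96.0 CPM, while the other 7 in replicate 2 had Calb1 at 2990, Lhx1 at 205 and Tmem52b at 21.2. Without the 9 cells and these, which left 50 and 48 tip cells, 4508 genes were called against the duct and 5071 against the rest. Of these calls, 4003 and 4508 were also made with all tip cells. Of the 110 genes named as called against the duct, 106 kept their call and direction then, and Calb1 was higher by a log2 fold change of 1.95. Where the 9 cells end a call or move a log2 fold change given below by over 1.5-fold, the value without them stands beside it.

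**Figure D2:**
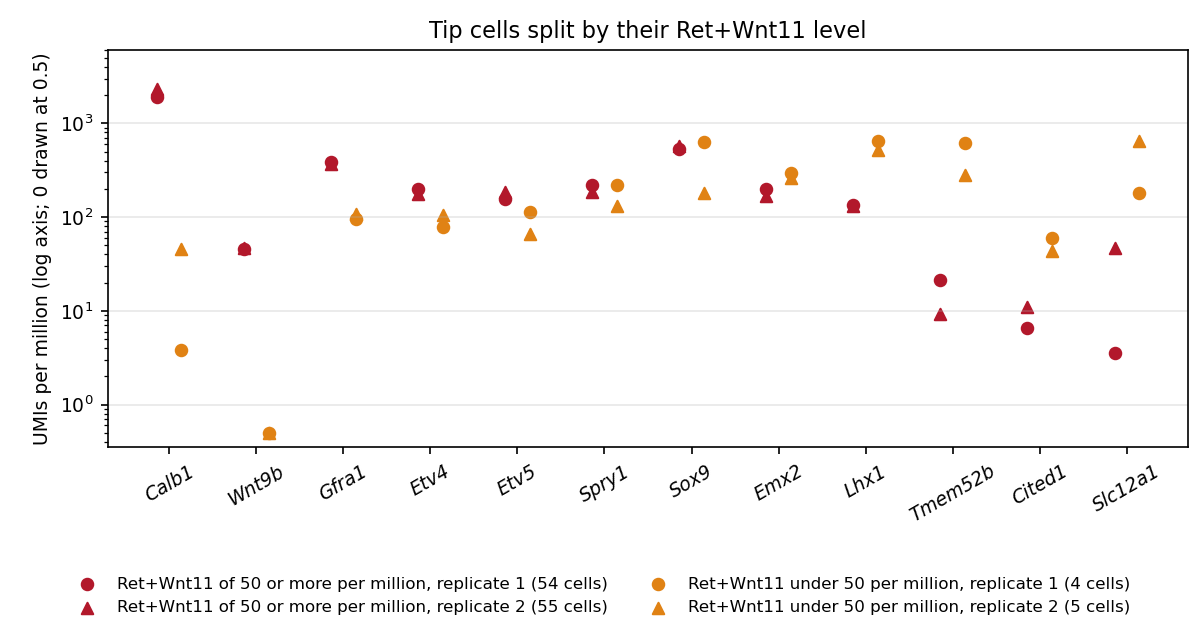
Level of 12 genes (x axis) in CPM (y axis, log scale, 0 drawn at 0.5) in tip cells with at least 50 CPM of Ret and Wnt11 together (red) and in those under 50 (orange); circles are replicate 1 and triangles replicate 2. Calb1 and Wnt9b are far lower in the orange points, and Lhx1 and Tmem52b far higher.

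The duct group was not free of tip transcripts either. In replicate 1, 12 duct cells with at least 2 UMIs of Ret and Wnt11 held 117 of the 124 Ret UMIs of that group, 132 of its 134 Wnt11 UMIs and 78 of its 82 UMIs of Cytl1, a small cytokine-like protein. In replicate 2, 3 such cells held 6 of 9 Ret UMIs. Several tip genes were higher in the duct of replicate 1 than of replicate 2, and some fold changes are also given without these 15 cells. In replicate 1 the 12 cells held all 50 duct UMIs of Kcnn4, all 7 of Adamts18 and all 3 of Sox8, and in replicate 2 the 3 cells held both UMIs of Kcnn4 and 2 of 3 of Sox8. The duct was left with at most 1 UMI of each of these 3 genes, so no fold change without the cells is given for them.

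Differences between tip and Aqp2 duct cells were tested for every gene outside the 8 that defined the groups, in 1 fit of edgeR's quasi-likelihood test with library as a block. Both groups were chosen on UMIs of the same cells, so the tests describe how these groups differ in genes the rule did not read. Of 13450 genes tested, 34.4% passed an adjusted p of 0.05 (Benjamini-Hochberg over all genes), 17.7% higher and 16.8% lower in tip cells, and the median log2 fold change was -0.03.

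Of 24 tested genes of the tip and GDNF-RET list, 19 were higher in tip cells, 4 were lower and Itga3 did not pass. The median log2 fold change of the list was 1.83. Gfra1 (chr19:58235581-58455946), the GDNF co-receptor, stood at 336 and 305 CPM in tip cells, 89.8 and 87.6 in duct cells and 29 and 30.5 in the rest. Its log2 fold change against the duct was 1.89 ± 0.08 (SE), with an adjusted p of 2.0e-05 by edgeR's quasi-likelihood test. The 3 groups did not overlap. Met, the receptor of hepatocyte growth factor, was at 86.3 and 84.9 in tip cells and 52.6 and 36.1 in duct cells, a log2 fold change of 0.97 ± 0.14. Fgfr2, the fibroblast growth factor receptor of the ureteric bud, went the other way, at 86.6 and 73.6 against 147 and 153 (log2 fold change -0.86 ± 0.09). Egfr, the epidermal growth factor receptor, was lower in tip cells too, from 5 UMIs in each library, at 1.62 and 2.08 against 12.1 and 11.5 CPM.

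The ETS factors that RET induces were both higher in tip cells. Etv4 (chr11:101769747-101785310) was at 180 and 161 CPM in tip cells and 28.3 and 15.9 in duct cells, a log2 fold change of 2.94 ± 0.20. Etv5 (chr16:22381313-22439570) was at 149 and 156 against 27.7 and 12.5, a log2 fold change of 2.90 ± 0.24. Without the 15 duct cells the values were 3.58 and 3.54. In both genes every tip value lay above every duct value.

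Spry1 (chr3:37639947-37644599), a Sprouty protein that restrains RET, was at 222 and 171 in tip cells and 71.0 and 60.9 in duct cells (log2 fold change 1.62 ± 0.07). Spry2 was higher by a log2 fold change of 1.22 ± 0.13 and Spry4 by 2.74 ± 0.22. Dusp6, a phosphatase that inactivates ERK, was at 119 and 125 against 37.3 and 31.9, a log2 fold change of 1.84 ± 0.11. All 4 were higher in both libraries. After thinning every cell to 5000 UMIs, Spry2 was no longer called (1.43). With the mitochondrial limit at 5% instead of 10%, which left 5 and 1 duct cells, Spry2 (0.97), Spry4 (1.77) and Dusp6 (0.89) were not called.

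The SOX factors Sox8 and Sox9, which act downstream of RET, were higher in tip cells. Sox9 was at 544 and 480 CPM against 150 and 85.6 in duct cells (log2 fold change 2.16 ± 0.20), and at 44.8 and 49.1 in the rest. Sox8 (chr17:25565893-25570686) was sparser, with 41 and 20 UMIs in tip cells and 3 and 3 in duct cells (log2 fold change 4.31 ± 0.49). Myb, a transcription factor of proliferating progenitors, was at 18.2 and 14.1 against 6.88 and 7.61.

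Among secreted and surface proteins of the tip, Slco4c1, an organic anion transporter, was at 75.6 and 88.2 against 14.5 and 9.81 (log2 fold change 2.78 ± 0.26). Ros1, an orphan receptor tyrosine kinase, was at 27.6 and 36.6 against 9.18 and 11, and Mia, a small secreted protein, at 40.2 and 44.1 against 9.02 and 5.89. Adamts18, a secreted metalloprotease, had 59 and 55 UMIs in tip cells, and 7 and 0 in duct cells. Cxcr4, the receptor of CXCL12, had 40 and 48 UMIs in tip cells, at 13 and 19.97 CPM, against 2.75 and 0.491 CPM in duct cells. In each of these 5 genes every tip value lay above every duct value.

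Npnt, a matrix ligand of integrins, was lower in tip cells, at 455 and 372 CPM against 1117 and 1269 (log2 fold change -1.49 ± 0.10). Emx2, a homeobox factor required for the ureteric bud, was lower, at 213 and 191 against 252 and 304 (log2 fold change -0.41 ± 0.10), a call lost after thinning (-0.39). Lhx1 was higher, at 222 and 222 against 88.4 and 79.7 (log2 fold change 1.43 ± 0.08). That log2 fold change was 0.70 without the 9 cells with little Ret and Wnt11.

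**Figure D3:**
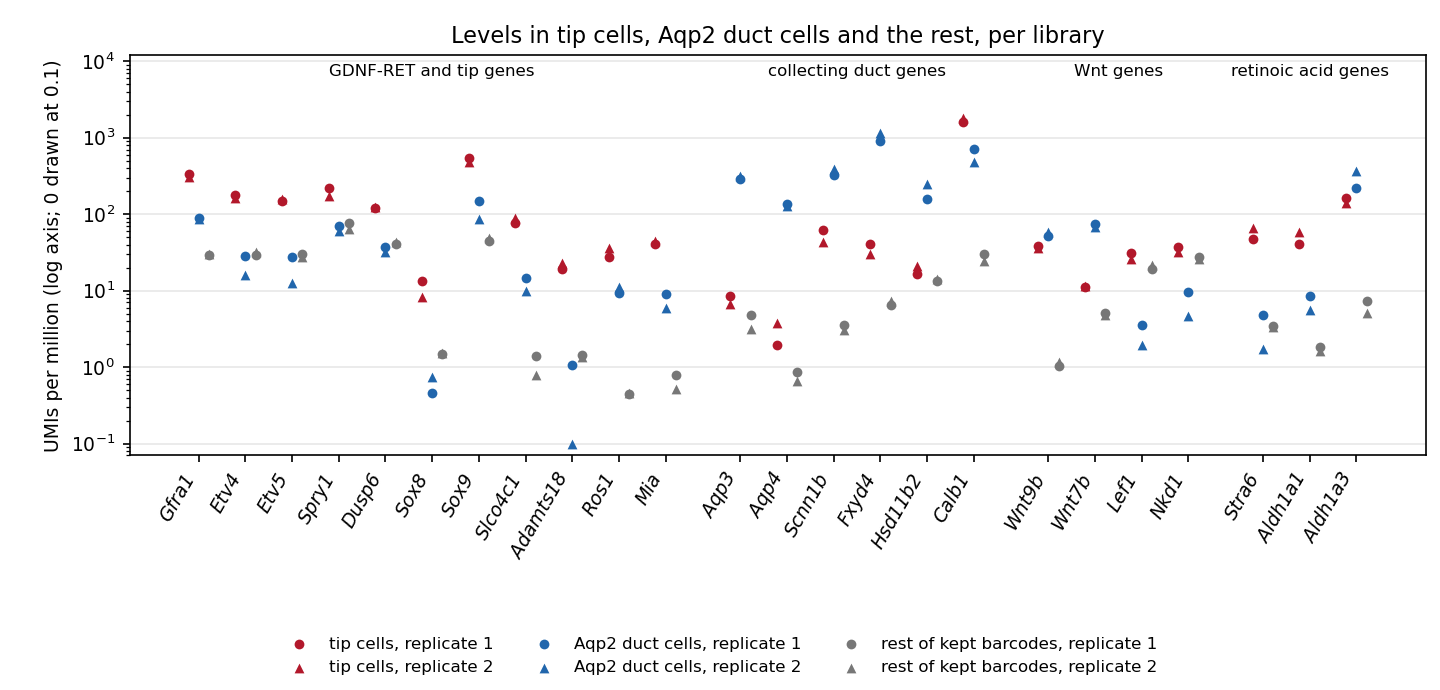
Levels of 24 genes in CPM (y axis, log scale, 0 drawn at 0.1) in tip cells (red), Aqp2 duct cells (blue) and the rest of the kept barcodes (grey); circles are replicate 1 and triangles replicate 2. Tip genes lie highest in the red points, and the duct channel genes Aqp3, Aqp4, Scnn1b and Fxyd4 lie highest in the blue ones.

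Genes of collecting duct differentiation were low in tip cells. Of 21 tested, 17 were lower than in duct cells, 1 was higher and 3 did not pass, with a median log2 fold change of -2.71. The duct group was chosen on Aqp2, a gene of the same cells, so the count describes that choice as well. Aqp3 and Aqp4, the water channels of the basolateral membrane, were at 8.44 and 6.66 and at 1.95 and 3.74 CPM in tip cells. In duct cells they were at 292 and 319 and at 136 and 129, giving log2 fold changes of -5.29 ± 0.23 and -5.56 ± 0.22. Avpr2, the vasopressin receptor, was at 2.27 and 2.50 in tip cells and 30.6 and 22.1 in the duct.

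The 3 subunits of the epithelial sodium channel differed in how far they were down. Scnn1a had a log2 fold change of -4.03 ± 0.19, Scnn1b of -2.69 ± 0.16 and Scnn1g of -2.71 ± 0.14. Scnn1b was at 62.3 and 42.9 CPM in tip cells, 322 and 384 in duct cells and 3.54 and 3.08 in the rest, so the tip stood between the other groups. Fxyd4, a regulator of the sodium pump, was at 40.2 and 30.4 against 895 and 1151 (log2 fold change -4.78 ± 0.15). Hsd11b2, which inactivates cortisol in duct cells, was at 16.5 and 20.8 against 156 and 245. The keratins Krt7 and Krt19 were lower by log2 fold changes of -2.49 ± 0.09 and -2.25 ± 0.11.

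Calb1 (chr4:15881264-15906709) was the 1 listed duct gene that was higher in tip cells. It stood at 1602 and 1807 CPM in tip cells, 704 and 481 in duct cells and 30.03 and 24.6 in the rest. Its log2 fold change against the duct was 1.59 ± 0.16, with an adjusted p of 0.00042 by edgeR's quasi-likelihood test. Across single tip cells Calb1 ran from 0 through a median of 1973 to 5694 CPM in replicate 1, and from 0 through 2415 to 7334 in replicate 2. With a mitochondrial limit of 5% its log2 fold change against the duct was -0.15, with the duct reduced to 5 and 1 cells. Of the 85 named genes that were called and still had a value at that limit, 52 kept their call and direction. Besides those whose values at that limit are given elsewhere, Ros1, Mia, Myb, Emx2, Elf3, Krt19, Wnt9b, Wnt5a, Lgr5, Axin2, Tcf7, Nkd1, Ccnd3, Mcm3, Mcm5, Cdkn1c, Epcam, Rbpj, Dll1 and Ednrb were no longer called there. Without barcodes over 50000 UMIs, Calb1 was at 2.33.

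**Figure D4:**
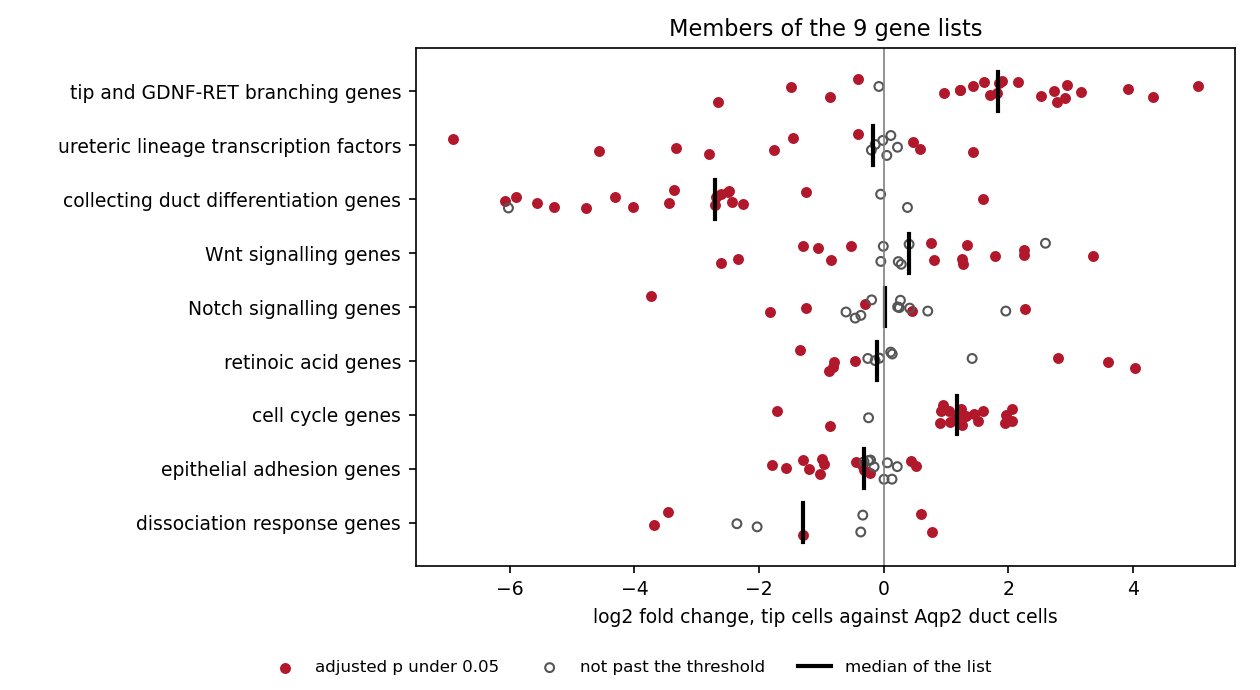
Log2 fold change of tip against Aqp2 duct cells (x axis) for the tested members of 9 gene lists (y axis, points spread vertically at random); filled points passed an adjusted p of 0.05, open points did not, and black bars are list medians. The medians are 1.83 for the tip and GDNF-RET list, 1.18 for the cell cycle list and -2.71 for the collecting duct list.

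Transcription factors of the ureteric lineage split between the groups. Of 16 tested, 3 were higher in tip cells, 7 were lower and 6 did not pass, with a median of -0.17. Tfcp2l1, a regulator of principal and intercalated cells, was at 196 and 181 CPM against 658 and 658, a log2 fold change of -1.76 ± 0.06. Gata2 was at 9.73 and 9.99 against 78.0 and 62.3 (log2 fold change -2.81 ± 0.16), and Elf5, an ETS factor of principal cells, at 5.84 and 6.24 against 55.8 and 69.7. Foxi1, the master factor of intercalated cells, had 3 UMIs in tip cells and 706 in duct cells, a ratio of 0.00822 (exact conditional 95% interval 0.00169 to 0.0241).

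The factors Pax2, Pax8, Tfap2a, Grhl2 and Ehf were among those that did not pass the test between tip and duct. Ehf was at 105 and 104 CPM in tip cells and 109 and 108 in duct cells, against 10.4 and 8.76 in the rest. Tfap2b, an AP-2 factor, was called higher in tip cells with a log2 fold change of 0.59 ± 0.10, but the value was -0.58 without the 9 cells with little Ret and Wnt11, and -0.91 without the other tip cells that held no Ret as well. Sim1 was called at 0.47 ± 0.10, and without the 9 cells stood at 0.07 and was no longer called. Its call was also lost after thinning (0.31), without barcodes over 50000 UMIs (0.17) and at a minimum of 4 UMIs of Ret and Wnt11 (0.15). With Aqp2 of 0 in tip and at least 6 in duct cells it was lost as well (0.30).

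Genes of Wnt signalling went both ways. Of 21 tested, 9 were higher in tip cells, 6 were lower and 6 did not pass, with a median of 0.41. Lef1, a transcription factor and target of canonical Wnt signalling, was at 31.5 and 25.8 CPM against 3.52 and 1.96 in duct cells, a log2 fold change of 3.35 ± 0.28. The targets Nkd1 (2.24 ± 0.23), Tcf7 (1.78 ± 0.16), Lgr5 (1.34 ± 0.23) and Axin2 (1.27 ± 0.22) were higher too, all as log2 fold changes, with the call of Lgr5 lost after thinning (1.89) and without barcodes over 50000 UMIs (1.15). Axin2 stood at 34.1 and 35.8 in tip cells and 12.4 and 18.2 in duct cells.

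Among ligands, Wnt7b, which the duct trunk secretes to the medullary stroma, was at 11 and 11.7 CPM in tip cells and 73.9 and 67.0 in duct cells (log2 fold change -2.60 ± 0.15). Wnt4, a ligand of early nephrons, was lower as well (-2.35 ± 0.15), while Wnt5a (1.26 ± 0.14) and Wnt6 (2.25 ± 0.55, from 23 and 10 UMIs) were higher. Wnt9b (chr11:103727362-103775272), the ureteric ligand that induces nephrons, was at 38.3 and 35.8 in tip cells and 51.1 and 59.1 in duct cells. Its log2 fold change of -0.52 ± 0.13 was called, but not without the 9 cells with little Ret and Wnt11 (-0.18), at a minimum of 4 UMIs of the pair (-0.26), after thinning (-0.18) or without barcodes over 50000 UMIs (-0.14). Single tip cells had a median of 3.13 and 17.8 Wnt9b CPM and a highest value of 235 and 264. Against the rest, at 1.05 and 1.16, Wnt9b was higher by a log2 fold change of 5.04 ± 0.15.

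Genes that handle retinoids, which stromal cells make and which raise Ret in the ureteric bud, were divided. Of 14 tested, 3 were higher in tip cells, 5 were lower and 6 did not pass, with a median of -0.10. Stra6, the cell-surface retinol transporter, was at 47.0 and 66.6 CPM in tip cells, 4.74 and 1.72 in duct cells and 3.49 and 3.39 in the rest. Its log2 fold change against the duct was 4.03 ± 0.36, with an adjusted p of 0.00030 by edgeR's quasi-likelihood test.

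Enzymes that turn retinal into retinoic acid went both ways. Aldh1a1 was at 40.6 and 59.1 CPM in tip cells and 8.56 and 5.64 in duct cells (log2 fold change 2.79 ± 0.30). Aldh1a3 was at 164 and 140 against 222 and 365, a log2 fold change of -0.88 ± 0.25, and was no longer called without the 15 duct cells (-0.83) or without the 9 tip cells (-0.55). Aldh1a2, the stromal enzyme, did not pass, at 10.7 and 28.3 against 22.9 and 16.2. Crabp2, a retinoic acid-binding protein, was lower in tip cells at 8.11 and 9.57 against 19.6 and 27, and was not called without barcodes over 50000 UMIs (-0.88). Without the 15 duct cells the log2 fold changes of Stra6 and Aldh1a1 were 6.16 and 3.76. At the mitochondrial limit of 5%, Aldh1a1 was not called, at -0.0081.

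Rbpj (chr5:53555779-53657445), which encodes the DNA-binding partner of activated Notch, stood at 47.7 and 53.7 CPM in tip cells, 37.0 and 38.5 in duct cells and 47.1 and 47.5 in the rest. Tip cells were higher than duct cells by a log2 fold change of 0.46 ± 0.11, with an adjusted p of 0.014 by edgeR's quasi-likelihood test. The call was lost after thinning (0.28) and without barcodes over 50000 UMIs (0.58). Which exons the conditional allele loses is not stated, and these libraries read transcripts near their 3' end, so the counts do not show whether the allele was recombined.

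Of 16 Notch genes, 2 were higher in tip than in duct cells, 4 were lower and 10 did not pass, or 37.5% called, near the share of all genes. Nrarp, a Notch target and inhibitor, was at 10.1 and 12.1 against 30.1 and 22.8 (log2 fold change -1.25 ± 0.21). Dll1, a Notch ligand, had 8 and 5 UMIs in tip cells and was lower by -1.83 ± 0.29. Both calls were lost without barcodes over 50000 UMIs, with values of -0.44 and -0.63. Hes1, a target gene, differed by -0.30 ± 0.07 and was not called without the library block, after thinning (-0.29) or without barcodes over 50000 UMIs (-0.32).

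Cell cycle genes were higher in tip than in duct cells as a list. Of 21 tested, 18 were higher, 2 were lower and Cdkn1b did not pass, with a median of 1.18. Ccnd2, cyclin D2, was at 475 and 464 CPM against 119 and 113, a log2 fold change of 2.06 ± 0.08. The replication licensing factors Mcm3 and Mcm5 were higher by 2.06 ± 0.11 and 1.96 ± 0.14. Mki67, which marks dividing cells, was at 250 and 193 against 95.4 and 154, and its log2 fold change of 0.91 ± 0.21 was 1.41 within replicate 1 and 0.40 within replicate 2. Top2a gave 1.05 ± 0.22, and 1.56 and 0.48 within the libraries, and did not pass with DESeq2's Wald test.

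The inhibitor Cdkn1a, induced by p53 and stress, was lower in tip cells, at 33.4 and 60.3 CPM against 101 and 225 (log2 fold change -1.71 ± 0.21). Ccnd3, cyclin D3, differed by -0.86 ± 0.08, a call lost after thinning (-0.89). Cdkn1c, the inhibitor p57, was higher than in duct cells (1.16 ± 0.14), at 79.8 and 115 against 44.5 and 43.4, but stood at 916 and 975 in the rest.

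With every cell thinned to 5000 UMIs, an Mki67 or Top2a UMI was found in 58.6% of tip cells in replicate 1 (exact 95% interval 44.9 to 71.4%) and 46.7% in replicate 2 (33.7 to 60%). The share was 23.5% and 26.4% in duct cells and 33.6% and 33.3% in the rest. Unthinned, the shares were 86.2% and 73.3% of tip cells, 49.0% and 41.7% of duct cells, and 41.1% and 40.6% of the rest. Thinning left out 2 duct cells and no tip cell, and kept 5309 and 4430 barcodes of the rest. It evens out detection but not the choice of deeper cells by the rule. Tip cells with at least 3 UMIs of Mki67 and Top2a together had median depths of 51266 and 43600 UMIs, against 16983 and 14686.5 in those with 0. The part of depth in the shares was not tested. The tip interval lay above those of the duct and the rest in replicate 1. In replicate 2 it overlapped both, with 16.7 to 38.1% in the duct and 31.9 to 34.7% in the rest.

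**Figure D5:**
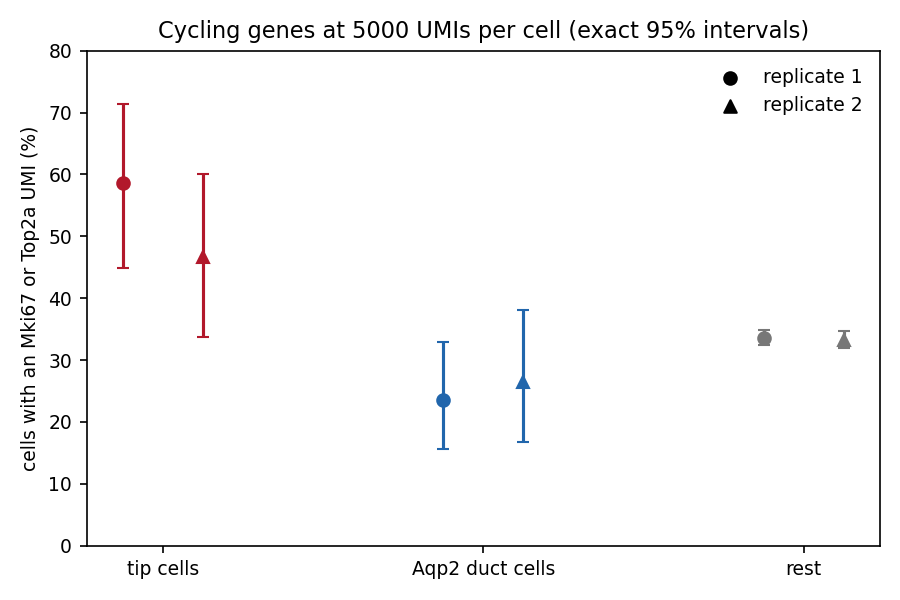
Share of cells with at least 1 UMI of Mki67 or Top2a (y axis, %) after thinning each cell to 5000 UMIs, in tip cells, Aqp2 duct cells and the rest; circles are replicate 1, triangles replicate 2, and bars are exact binomial 95% intervals. The tip share is 58.6% and 46.7%, and in replicate 2 its interval overlaps those of the duct and the rest.

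Epithelial adhesion genes went mostly the way of the duct. Of 21 tested, 2 were higher in tip than in duct cells, 11 were lower and 8 did not pass, with a median of -0.32. Cdh1, E-cadherin, was at 149 and 149 CPM against 371 and 377 (log2 fold change -1.29 ± 0.06), and Cdh16, kidney cadherin, at 296 and 289 against 832 and 969 (-1.57 ± 0.07). Cldn8, a claudin of the duct barrier, was lower by -1.80 ± 0.07, and the keratins Krt8 and Krt18 by -1.02 ± 0.11 and -0.99 ± 0.08. Epcam, an epithelial adhesion molecule, was at 1557 and 1775 against 1087 and 1319 (0.51 ± 0.06), and Cldn3 at 450 and 555 against 318 and 449 (0.44 ± 0.06, not called without the library block).

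Outside the lists, the 15 genes that were highest in tip over duct cells included several secreted or surface proteins. Cytl1 was at 97.0 and 101 CPM against 12.5 and 0.245 (log2 fold change 4.0 ± 0.65). Kcnn4, a calcium-activated potassium channel, was at 60.3 and 57.4 against 7.65 and 0.491, and Lcn2, the iron-siderophore carrier lipocalin 2, at 398 and 534 against 64.4 and 15.9. Within replicate 1 the log2 fold changes were 2.98, 3.0 and 2.65, and the duct of replicate 2 held 1 UMI of Cytl1 and 2 of Kcnn4. Without the 15 duct cells Cytl1 was at 7.59 and Lcn2 at 5.92, and the duct had no UMI of Kcnn4 left.

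Fbln2, a matrix fibulin, was at 75.9 and 57.8 against 7.34 and 4.91 (log2 fold change 3.48 ± 0.15), and Hs3st3b1, a heparan sulphate sulphotransferase, at 185 and 157 against 23.2 and 6.62. Krt23 was at 275 and 324 against 54.3 and 25.8, and Rprm, a cell cycle arrest protein, at 764 and 660 against 158 and 115. Nrtn, neurturin, a ligand of the GDNF family, was at 83.7 and 85.3 against 17.9 and 13 (log2 fold change 2.45 ± 0.18). Mycn, which drives progenitor growth, was at 56.5 and 46.6 against 12.1 and 5.40, and Mdk, the growth factor midkine, at 804 and 835 against 198 and 104. Nnat, Moxd1, Epha4 and 1500015O10Rik had log2 fold changes of 2.81, 2.61, 2.55 and 2.45, and without the 15 duct cells that of 1500015O10Rik was 4.24. At the mitochondrial limit of 5%, Mycn (0.49), Rprm (0.81), Moxd1 (0.81) and 1500015O10Rik (0.066) were no longer called.

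Cxcl12, the ligand of CXCR4, completed the 15 with a log2 fold change of 2.96 ± 0.46, at 41.5 and 77.8 CPM against 10.9 and 2.94. The value was 1.68 without the 9 cells with little Ret and Wnt11, and 0.86 and not called without barcodes over 50000 UMIs. The level in the rest was 141 and 127.

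Of the 15 genes that were lowest in tip against duct cells, Crisp1 had 2 UMIs in each tip library against 1522 and 525 in duct cells, and Sprr2f was at 4.54 and 3.74 CPM against 1076 and 485. Atp6v1g3 and Atp6v0a4, subunits of the proton pump of intercalated cells, were lower by log2 fold changes of -7.91 ± 0.69 and -3.79 ± 0.21. Without the 9 cells with little Ret and Wnt11, Atp6v0a4 was at -4.89. The value of Atp6v1g3 rests on 1 and 3 UMIs in tip cells and was -9.12 and -6.84 within the libraries. Rhcg, an ammonia channel, was at 2.60 and 6.24 against 145 and 161, and Guca2a, the peptide guanylin, at 0.973 and 0.832 against 85.9 and 79.7. Foxq1, a forkhead factor, was at 2.92 and 1.25 against 286 and 260. The log2 fold change of Foxq1, which rests on 9 and 3 UMIs in tip cells, was -6.96, and -8.63 without the 9 cells.

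S100g, the calcium-binding protein calbindin-D9k, was at 70.7 and 114 CPM in tip cells and 2635 and 2765 in duct cells (log2 fold change -4.85 ± 0.21, and -5.71 without the 9 cells). The direction is opposite to that of Calb1, the other calbindin. Sgk1, a kinase that aldosterone raises, was at 3.24 and 4.16 against 95.6 and 104, and Ednrb, an endothelin receptor, at 3.89 and 1.25 against 45.6 and 56.2. Apela, Ckmt1, Adgrf5, Cryab and Efemp1 had log2 fold changes from -4.41 to -3.70, and without the 9 cells Ckmt1 was at -5.90 and Adgrf5 at -4.75.

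Against the rest of the kept barcodes, a mixture of all other kidney cells, 38.2% of the 13450 genes tested passed, 17.1% higher and 21.1% lower in tip cells. The median log2 fold change was -0.02. Both comparisons share the tip cells, so each gene's values are given side by side. Of 24 tip and GDNF-RET genes, 19 were higher and 2 lower (Egfr and Etv1), with a median of 1.54. Slco4c1 was higher by a log2 fold change of 6.19 ± 0.26, Ros1 by 6.07 ± 0.23 and Mia by 5.96 ± 0.26. In the rest these 3 stood at 1.39 and 0.797, 0.446 and 0.465, and 0.790 and 0.520 CPM.

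Gfra1 was higher by a log2 fold change of 3.39 ± 0.08, Sox9 by 3.40 ± 0.20, Etv4 by 2.43 ± 0.16, Etv5 by 2.35 ± 0.19, Dusp6 by 1.5 ± 0.09 and Spry1 by 1.43 ± 0.07. Lhx1, at 213 and 225 CPM in the rest, did not pass. Of 16 ureteric transcription factors, 13 were higher and none lower, with a median of 1.29, led by Ehf (3.41 ± 0.10) and Tfap2a (3.38 ± 0.16). Foxa1, Foxi1 and Lhx1 did not pass.

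Duct genes were partly present in tip cells above the rest. Of 21 tested, 11 were higher, 2 were lower and 8 did not pass, with a median of 0.89. Calb1 was higher by a log2 fold change of 5.94 ± 0.18 and Scnn1b by 3.96 ± 0.19, while Aqp3, Scnn1a and Hsd11b2 did not pass. All 21 adhesion genes passed, 18 higher and 3 lower, with a median of 1.70, and Cldn3 led with 3.52 ± 0.07. The 3 lower ones were Tjp1, Col4a1 and Col4a2.

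Of 21 Wnt genes, 12 were higher than in the rest and 3 were lower, with a median of 0.51. Of 14 retinoid genes, 3 were higher and 7 lower, with a median of -0.13, where Aldh1a1 (4.79 ± 0.27), Aldh1a3 (4.57 ± 0.28) and Stra6 (3.99 ± 0.28) were the higher ones. Ecm1, a stromal matrix protein, was lower by -3.68 ± 0.19. Of 21 cell cycle genes, 6 were higher, 3 were lower and 12 did not pass, with a median of 0.06, and Cdkn1c had the lowest value, -3.34 ± 0.12.

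Notch genes were mostly lower than in the rest. Of 16 tested, 10 were lower, 2 were higher and 4 did not pass, with a median of -1.25. Dll1 was lower by -3.48 ± 0.22, at 2.60 and 2.08 CPM against 26.3 and 25, and the target Hey1 by -2.08 ± 0.19. Notch3, a receptor, was at 26.6 and 19.6 against 11.1 and 9.97 (1.10 ± 0.18, not called after thinning), and Hes1 was higher by 0.43 ± 0.06. Neither was called against the rest at the mitochondrial limit of 5% (0.28 and 0.20). Rbpj did not pass.

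Outside the lists, the 15 genes highest over the rest by log2 fold change included Rprm (6.34 ± 0.18), Cytl1 (6.28 ± 0.57), Krt23 (6.0 ± 0.26), 1500015O10Rik (5.05 ± 0.09), Lcn2 (4.55 ± 0.45) and Kcnn4 (3.96 ± 0.40), which were also among the 15 highest over the duct. Apoc1, Lix1 and Cited4 were higher by 3.39, 3.36 and 3.14. Bspry, Esrp1, St6galnac2 and Fam149a did not pass against the duct. Esrp1, an epithelial splicing factor, was at 56.8 and 52.8 CPM in tip cells and 51.7 and 61.1 in duct cells, against 6.01 and 6.15 in the rest. Mal2, a transport protein of polarised epithelia, was at 154 and 148 against 195 and 235 in duct cells and 9.43 and 8.61 in the rest. Adora1, the adenosine A1 receptor, was at 76.9 and 66.6, 40.5 and 30.4, and 6.20 and 5.96 in the 3 groups.

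Genes of the response to tissue dissociation gave 2 higher, 3 lower and 4 not past the test among 9 tested against the duct, with a median of -1.30. The heat shock genes Hspa1a and Hspa1b were at 2.27 and 0.832 and at 3.24 and 2.50 CPM in tip cells, and at 19.0 and 17.7 and at 37.6 and 39.5 in duct cells. Against the rest, 1 gene, Ier2, was higher and 8 did not pass. Duct cells also had the higher mitochondrial share, given above, and the part of either in the differences from the duct was not tested.

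Ptprc (chr1:138062859-138175756), which encodes the leukocyte antigen CD45, had 44.1 and 33.3 CPM in tip cells, 65.6 and 61.6 in duct cells and 12.4 and 10.7 in the rest. It was higher in tip cells than in the rest by a log2 fold change of 1.71 ± 0.12, with an adjusted p of 4.8e-05 by edgeR's quasi-likelihood test. At the mitochondrial limit of 5% Ptprc was not called against the rest, at -0.29. The other immune markers were near 0 in tip cells, with C1qa at 0 and 0.832, C1qb at 0.324 and 0.416, Lyz2 at 6.49 and 0.416 and Tyrobp at 11 and 0 CPM. Of the 34 Tyrobp UMIs in replicate 1, 30 lay in 1 cell. Near-empty barcodes, with at most 100 UMIs, held Ptprc at 93.7 and 85.7 CPM.

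EYFP, a reporter sequence counted as an added feature, had 11 and 55 UMIs in tip cells, or 3.57 and 22.9 CPM. In replicate 2, 46 of the 55 UMIs lay in 1 cell. In the rest EYFP stood at 66.0 and 61.2 CPM and in near-empty barcodes at 48.0 and 49.0.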

How the data were processed

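The 2 libraries hold single cells of mutant mouse kidneys, captured with 10x Chromium 3' chemistry, per the labels' protocols. The deposited matrices hold raw counts of UMIs per gene and barcode, unfiltered. Cell Ranger 6.0.1 and mm10 are named in the submitters' processing notes, while the matrix headers name version 4. Strand setting and annotation version were not given in the sources used here.

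Barcodes with at least 2000 UMIs and at most 10% mitochondrial UMIs were kept (690 and 768 were removed for the latter). Doublets were not removed. Leaving out the highest Scrublet scores (scanpy 1.11.5, 0.8% per 1000 barcodes) was an alternative, as were the other settings of the closing section. UMIs summed per library and group were fitted in edgeR 4.0.16 (limma 3.58.1, R 4.3.3) with filterByExpr, TMM normalization, 3 groups and library as a block, giving 6 columns, 2 residual degrees of freedom and a common dispersion of 0.00532. The quasi-likelihood test was adjusted by Benjamini-Hochberg over 13450 genes at 0.05. Its prior degrees of freedom, which weigh the spread shared across genes, had a median of 5.17. The SE beside a log2 fold change is its absolute value divided by the square root of the test's F statistic. The 8 genes that defined the groups were left out. DESeq2 1.42.0 was an alternative. On simulated data for tip against duct, 12999 genes were fitted, with a dispersion of 0.00532. Of these, 82 of 100 genes changed by a log2 of 1 and 100 of 100 changed by 2 were called. There were 5 calls among 12799 unchanged genes. Recovery of genes with other dispersions, or of genes with few UMIs taken separately, was not tested. Values within 1 library are differences of log2 CPM with no test.

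Members, gene lists and markers were chosen with earlier results of these data known. Named genes are those of 9 lists and, outside them, the 15 with the largest log2 fold change in each direction against the duct, and the 15 higher against the rest. These had to pass the test, reach 50 CPM in the higher group and move alike in both libraries. The 9 cells with little Ret and Wnt11, the tip cells with no Ret, the 15 duct cells and the limit of 50000 UMIs were chosen after the data were seen. Replicates were numbered in record order. RefSeq coordinates (GRCm38.p6, the build of mm10) were matched by symbol, 15 of 15. Python 3.11.15, scipy 1.17.1 and matplotlib 3.10.9 were used. Some genes of the lists, and results that need them, are not reported here.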

Additional observations from a re-analysis of the deposited data

How the results depend on the processing

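The tip share, a value with no test, was 1.17% without replicate 1 and 0.932% without replicate 2. With the mitochondrial limit at 5%, which left 5 and 1 duct cells, the number of genes called was 534 against the duct and 2070 against the rest, and the tip share was 0.626%. After thinning to 5000 UMIs per cell, 1395 and 1743 genes were called, and 7305 could be tested. Without barcodes over 50000 UMIs, 2608 and 2957 were called and the tip share was 0.792%. A minimum of 4 UMIs of Ret and Wnt11 gave a share of 0.752%. All other alternatives kept both counts within 1.5 times of 4631 and 5142.

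Without the library as a replicate block, 4665 genes were called against the duct and 5047 against the rest, and of the named genes Hes1 and Cldn3 lost their call against the duct. DESeq2's Wald test called 3883 and 4073.

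Directions turned for a few genes. Tfap2b against the duct was -0.41 at a minimum of 4 UMIs of Ret and Wnt11, -0.58 at 50 CPM of the pair, -0.91 without tip cells lacking Ret as well and -0.016 without barcodes over 50000 UMIs. With the mitochondrial limit at 5%, log2 fold changes against the duct were -0.15 for Calb1, -0.0081 for Aldh1a1, -0.27 for Cldn3, 0.032 for Hes1, 0.84 for Nrarp and 9.95 for Adgrf5, and against the rest -0.29 for Ptprc. Of the named genes called against the duct that had a value, 52 of 85 kept their call and direction at that limit, 90 of 100 after thinning and 98 of 108 without barcodes over 50000 UMIs. The causes were not tested, beyond the fewer cells or UMIs that each of these settings leaves. Depth limits what can be said of genes under about 1 CPM, such as Adamts18 in duct cells of replicate 2, where 0 UMIs allow up to 0.905 CPM (exact Poisson 95% interval).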
